A study of Homo sapiens with 18 samples.

Results

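Tetraspanins are small membrane proteins that cross the membrane 4 times and gather integrins, proteases, immunoglobulin superfamily proteins and each other into patches at the cell surface and in late endosomes. Described here are 10 of their genes, namely TSPAN7, CD9, CD63, CD81, CD82, CD151, TSPAN1, TSPAN3, TSPAN6 and TSPAN15. They were found by gene symbol in the count tables, and all 10 had a row among the 55765 symbols of either table. The other 23 tetraspanin genes searched for, which bring the family here to 33, served as the comparison. TSPAN7 leads the list because it is the target of an antibody used in the study, and CD9, CD63 and CD81 are the tetraspanins most often used to mark extracellular vesicles.

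The RNA came from OVCAR3, a human cell line established from high-grade serous carcinoma of the ovary, and was sequenced in 18 libraries that formed 2 series of 9. In the first series the cells were kept with IgA or IgG (titled as coated cells) at 0.5 µg/ml, or had no antibody. In the second they were kept with IgA against BDNF or IgA against TSPAN7 at 0.5 µg/ml, or again had no antibody. Each of the 6 groups had 3 libraries. Every group, untreated ones included, was grown in RPMI medium with 2% serum, and incubation is given as 24 h in the sample descriptions and as a shorter time elsewhere in the study. The TSPAN7 and BDNF antibodies came from immortalised tumour B cells sorted with peptides of those proteins, and all results rest on 1 cell line. The study describes the 3 libraries of each group of the first series as experiments and gives only their number for the second, so p-values there measure the spread between libraries that may be technical repeats. Groups were compared within a series, since the series have untreated cells of their own.

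The comparisons ask how the RNA of the tumour cells differed once they had met IgA, either irrelevant in the study's term (first series) or against a named antigen (second series). In a tetraspanin the second, larger loop outside the cell carries the sites that antibodies and partner proteins recognise, and it is held together by bonds between cysteines. Its cysteine codons define the family: all 10 genes have neighbouring codons for cysteine, cysteine and glycine in that loop. In 6 of them the loop also has a codon for proline, any codon, a codon for serine and a codon for cysteine. The 48 bases of coding sequence around that second site are shown for these 6 to let the target be compared with its relatives. They were read from GENCODE transcripts, 5′ to 3′ on the strand of the gene, with cysteine codons in capitals.
TSPAN7: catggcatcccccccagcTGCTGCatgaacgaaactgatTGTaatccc
CD63: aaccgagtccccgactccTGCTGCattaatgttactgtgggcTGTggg
CD151: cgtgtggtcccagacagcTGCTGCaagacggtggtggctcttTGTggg
TSPAN3: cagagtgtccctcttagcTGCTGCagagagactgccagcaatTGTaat
TSPAN6: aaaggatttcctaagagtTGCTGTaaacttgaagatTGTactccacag
CD82: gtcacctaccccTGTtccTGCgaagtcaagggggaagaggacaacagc

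On GRCh37 the TSPAN7 stretch is at chrX:38535019-38535066 (plus strand, exon 5) and codes for residues 168 to 183 of 249. The CD63 stretch is at chr12:56119938-56119985 (minus strand, exon 6) and that of CD151 at chr11:837535-837582 (plus strand, exon 7). For TSPAN3 it is chr15:77345155-77345202 (minus strand, exon 5), for TSPAN6 chrX:99888429-99888476 (minus strand, exon 5) and for CD82 chr11:44639781-44639828 (plus strand, exon 8). Laid over TSPAN7 base by base without gaps, CD63 had the same base at 26 of the 48 positions, CD151 at 25, TSPAN3 at 22, TSPAN6 at 21 and CD82 at 18. All but CD82 have a pair of adjacent cysteine codons followed by another. CD9, CD81, TSPAN1 and TSPAN15 lack the second site and are not shown.

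OVCAR3 cells had little TSPAN7 RNA. The gene lies on chromosome X (38420795 to 38548174, GRCh37), and the 18 libraries held between 12 and 38 reads of it. IgA libraries had 21, 12 and 15 reads, IgG libraries 29, 27 and 30, and untreated cells of the first series 28, 22 and 32. Cells kept with BDNF IgA had 31, 28 and 38 reads, cells kept with TSPAN7 IgA 25, 20 and 15, and untreated cells of the second series 22, 30 and 24. The mean of the series, 0.68 and 0.61 normalised CPM (a count scaled by the normalised library total), was above that of 16.8% and 17.0% of the genes tested, and TSPAN7 supplied at most 0.067% of the reads of the 33 tetraspanins in any library. Some of these reads may belong elsewhere, and other reads of TSPAN7 may have gone uncounted: 676 of its exonic bases are shared with the gene ENSG00000250349 on the same strand. The study reports that its TSPAN7 antibody recognised the endogenous protein of OVCAR3 cells in a western blot, and RNA counts do not measure protein.

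The other members were expressed at much higher and very different levels. Reads were divided by the length of the merged exons to set genes beside each other, as normalised CPM per kilobase (mean ± SD, n = 3). CD63, which cycles between the surface, late endosomes and released vesicles, was first in every group, at 87.8 ± 7.32 and 116 ± 8.09 in untreated cells of the first and second series. CD9, a partner of integrins and immunoglobulin superfamily proteins in cell adhesion and fusion, was second, at 77.3 ± 3.88 and 54.5 ± 2.74. Their ranges overlapped in the untreated cells of the first series and with IgG, and were apart in the other 4 groups.

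A middle set of TSPAN1, TSPAN3, CD151, CD81 and CD82 followed. In untreated cells TSPAN1 was at 13.5 ± 1.13 and 20.8 ± 0.52 on the same scale, TSPAN3 at 13.7 ± 0.57 and 18.1 ± 0.24, and CD151, the tetraspanin that binds laminin receptors, at 11.1 ± 0.43 and 13.5 ± 1.00. CD81, best known as a B cell co-receptor and an entry factor of hepatitis C virus, was at 7.70 ± 0.14 and 12.9 ± 0.60. CD82, which is known as a suppressor of metastasis, was at 6.12 ± 0.34 and 13.5 ± 0.92. By mean, CD82 stood below TSPAN15 in the groups of the first series, with overlapping ranges with IgG, and above it in those of the second. With the longest transcript as the length it stood above TSPAN15 in untreated cells of the first series too. The series were scaled separately and that difference was not tested.

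At the low end were TSPAN15, which escorts the protease ADAM10, at 6.90 ± 0.48 and 7.22 ± 0.33, and TSPAN6 at 5.04 ± 0.61 and 5.51 ± 0.61. TSPAN7 was last in every group at 0.24 ± 0.05 and 0.20 ± 0.04, and its highest library in any group was below the lowest of TSPAN6. Neighbours that were not separated in untreated cells of the first series were CD63 and CD9, and TSPAN3 and TSPAN1. In those of the second series CD82, CD151 and CD81 were not separated. With the longest transcript as the length, 43 of the 60 ranks of 10 genes in 6 groups stayed the same, and CD63, CD9, TSPAN6 and TSPAN7 kept theirs in every group.

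**Figure D1:**
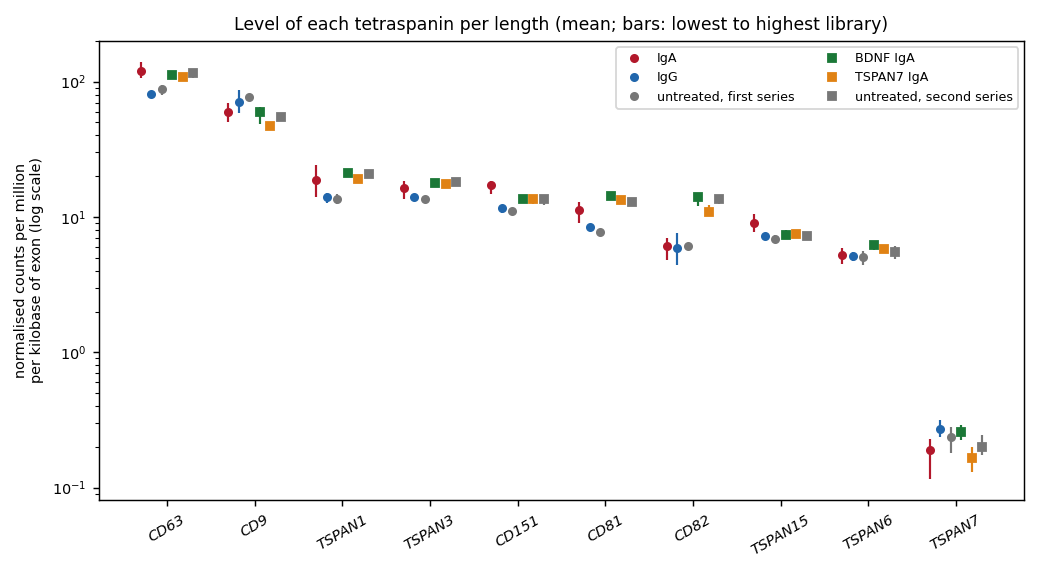
Level of each tetraspanin (y axis, normalised CPM per kilobase of merged exons, log scale) in the 6 groups. Points are means of 3 libraries and bars run from the lowest to the highest library; circles are the first series and squares the second. CD63 and CD9 stand at the top, and TSPAN7, between 0.17 and 0.27, lies far below the other 9.

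The labelled cell type was borne out by its markers. The 8 markers of ovarian carcinoma epithelium summed to between 4261 and 6335 CPM (here a count scaled by the plain library total) in every library, and the leukocyte markers to at most 2.02. Fibroblast markers summed to between 62.5 and 110.5 CPM, nearly all from COL1A1 and COL1A2, and the endothelial markers that had a row to at most 1.94. Total counts per library lay between 27920733 and 42371474 (first series) and between 39254350 and 47381836 (second series). IgA replicate 3 stood apart, with 19.1% of its counts from the mitochondrial genome against 5.75% to 8.32% in the rest of the first series. The IgA results of the members called are therefore also given without it. So are those over IgG of the other genes given with an adjusted p. Further genes named with IgA, markers included, are given with all libraries only.

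CD63, CD81 and CD151 were higher with IgA than with IgG. These were 3 of the 10 members (edgeR, p adjusted over all genes under 0.05), all of them higher. Of the 18012 genes tested 24.2% passed, 12.6% higher and 11.6% lower, so that 3 of 10 was near the background. Among genes with at least 1 CPM in 3 libraries 30.5% passed. In bulk RNA, less RNA per cell and fewer cells that hold it cannot be told apart. The median log2 fold change of the members was 0.26, against -0.01 over all genes.

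CD63 is on chromosome 12 (56119107 to 56123491). Its normalised read counts, scaled to the mean library of the series, were 9672, 9028 and 11989.6 with IgA, 7160.4, 6932 and 6591 with IgG, and 7574, 8080.5 and 6838 in untreated cells. Every IgA library was above every library of the other groups. The increase over IgG was 1.48-fold (log2 fold change 0.57, standard error 0.11, edgeR adjusted p = 0.0038), and over untreated cells 1.36-fold (0.45, standard error 0.11, edgeR adjusted p = 0.013).

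CD151, on chromosome 11 (832887 to 839831), had 2465.6, 2040.6 and 2523 normalised read counts with IgA. With IgG it had 1646, 1661 and 1470.2, and in untreated cells 1539.7, 1576 and 1461. The groups did not overlap, and the CD151 increase was 1.47-fold over IgG (log2 fold change 0.56, standard error 0.11, edgeR adjusted p = 0.0031) and 1.54-fold over untreated cells (0.62, standard error 0.11, edgeR adjusted p = 0.0015). CD151 shares 257 exonic bases with POLR2L on the opposite strand and whether reads were counted by strand is not given in the sources used here. CD63 shares 120 exonic bases with CD63-AS1, and CD81 shares 30 with CD81-AS1, also on the opposite strand.

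For CD81 on chromosome 11 (2397407 to 2419032), normalised read counts were 3601, 2537 and 3336 with IgA, 2302.5, 2466.5 and 2298 with IgG, and 2139, 2152 and 2213 in untreated cells. IgA replicate 2 lay just above the highest IgG library and the other IgA libraries well above. CD81 was 1.34-fold higher than with IgG (log2 fold change 0.42, standard error 0.12, edgeR adjusted p = 0.023) and 1.46-fold higher than in untreated cells (0.54, standard error 0.12, edgeR adjusted p = 0.0064). The CD81 call against IgG was the least firm of the 3: it was lost without IgA replicate 1 (edgeR adjusted p = 0.083) and without any one of the IgG libraries (0.058 to 0.081), with log2 fold changes between 0.31 and 0.55 over all libraries left out.

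Against untreated cells 4 of the 10 members were called, all higher, where 25.0% of all genes were called, 12.9% higher and 12.1% lower. Among genes with at least 1 CPM in 3 libraries the share was 31.1%. The median of the members was 0.31 on the log2 scale and that of all genes -0.01. The fourth was TSPAN15 on chromosome 10 (71211221 to 71267422), with 824, 722.5 and 978 normalised read counts against 639.6, 603 and 692. It was 1.30-fold higher (log2 fold change 0.38, standard error 0.13, edgeR adjusted p = 0.0492) and lost its call in 13 of 17 alternatives, so it stood at the threshold. The count fell to 2 members, CD81 and CD151, without untreated replicate 3, and was 3 without IgA replicate 3 (CD63 higher by 0.32, CD81 by 0.50 and CD151 by 0.56 on the log2 scale, and TSPAN15 by 0.26 with an edgeR adjusted p of 0.124).

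TSPAN1, on chromosome 1 (46640745 to 46651634), was spread widely over the IgA libraries, with 1477, 1162 and 2028 normalised read counts against 1052, 1179 and 1264 with IgG. Its log2 fold change over IgG was 0.41 (standard error 0.17, edgeR adjusted p = 0.09) and fell to 0.18 without IgA replicate 3. Over untreated cells it was 0.47 (standard error 0.17, edgeR adjusted p = 0.059), or 0.23 without IgA replicate 3, and TSPAN1 was called there by DESeq2, with no filter on low counts, with the replicate block and without IgA replicate 2 (adjusted p = 0.044, 0.0095, 0.037 and 0.0073). CD9, on chromosome 12 (6308881 to 6347437), was the abundant member that went the other way, with 14369.5, 12096.5 and 10291 normalised read counts with IgA against 15004, 16101 and 16552 in untreated cells. All IgA libraries were below all untreated ones, but CD9 was not called (log2 fold change -0.37, standard error 0.15, edgeR adjusted p = 0.08), and its lowest library was IgA replicate 3, without which its log2 fold change was -0.26. CD9 was called in 4 of 17 alternatives: scaling by library size alone, no filter on low counts, and without IgA replicate 1 or IgG replicate 3 (edgeR adjusted p = 0.026, 0.0095, 0.035 and 0.043). Against IgG the CD9 groups overlapped (log2 fold change -0.23, standard error 0.15, edgeR adjusted p = 0.27), and CD9 was called in 0 of 17 alternatives. CD82, TSPAN3 and TSPAN6 had log2 fold changes of 0.04, 0.21 and 0.04 over IgG, with standard errors of 0.19, 0.11 and 0.14, and were not called.

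Without IgA replicate 3, CD63 was higher than with IgG by 0.44, CD81 by 0.38 and CD151 by 0.50 on the log2 scale, with edgeR adjusted p-values of 0.00487, 0.0375 and 0.00464, so that the same 3 members were called. Leaving out IgA replicate 2, which had the lowest of the IgA libraries' counts for CD63, CD81 and CD151, brought the count against IgG to 6, with TSPAN1, TSPAN3 and TSPAN15 added. Scaling by library size alone lowered the median over all genes, on the log2 scale, from -0.01 to -0.25 and left 0 members called against IgG, while CD63, CD81 and CD151 still had positive log2 fold changes of 0.32, 0.18 and 0.31. Against untreated cells CD63, CD81 and TSPAN15 lost their calls under that scaling and CD151 kept its own.

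TSPAN7 itself had fewer reads in each IgA library than in any IgG library, but its log2 fold change of -0.52 had a 95% interval from -1.53 to 0.48 (edgeR adjusted p = 0.447). At 12 to 30 reads a library, no change was detected and changes within that interval are not excluded. Against untreated cells it was -0.32 (-1.33 to 0.69).

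IgG left no tetraspanin changed at the threshold. None of the 10 members, and 0 of all genes (0%), were called against untreated cells by edgeR or by DESeq2, and without a filter on low counts edgeR called 2 genes. At an unadjusted p under 0.05 there were 0 members and 89 genes. The member with the largest log2 fold change was TSPAN7 at 0.21 (95% interval -0.77 to 1.18), followed by CD9 at -0.14 (-0.46 to 0.18). CD81 was the 1 member of 10 whose groups did not overlap, with 2302.5, 2466.5 and 2298 normalised read counts against 2139, 2152 and 2213. The difference was 0.12 on the log2 scale (95% interval -0.14 to 0.38). How many of all genes were apart in this way was not counted, so nothing is read from it.

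**Figure D2:**
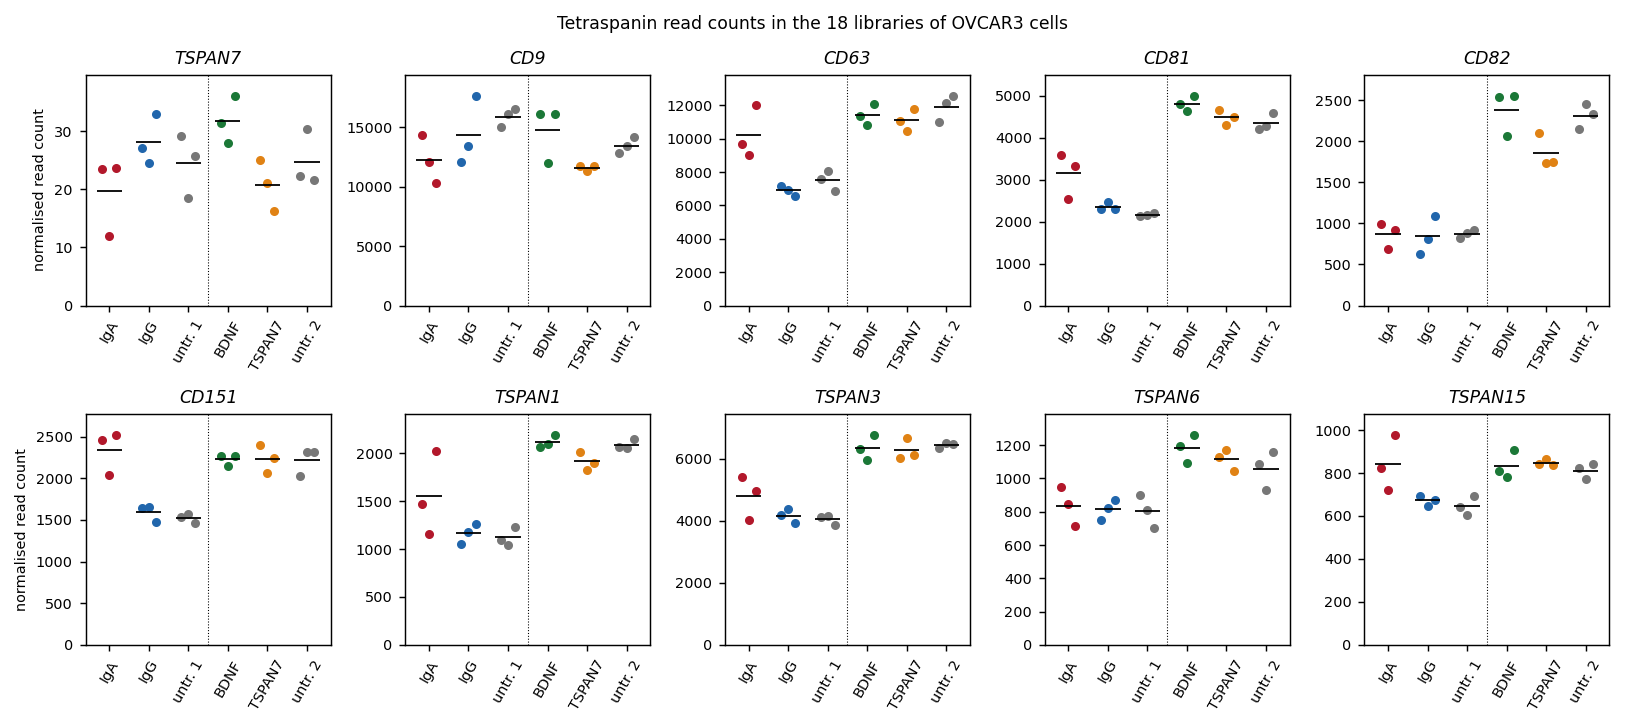
Normalised read counts (y axis, linear from 0, scaled within a series) of the 10 tetraspanins in the 18 libraries, 1 point per library, with a line at each group mean. The dotted line separates the series (untr. 1 and untr. 2 are their untreated cells). CD63, CD81 and CD151 lie higher with IgA than with IgG, CD9 and CD82 lie lower with TSPAN7 IgA, and TSPAN7 stays below 40 counts throughout.

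The libraries of the second series differed less from each other, with a common dispersion of 0.003 against 0.031 in the first. They may be technical repeats, so smaller p-values there need not mean firmer results. The value of the first series also carries the unlike IgA libraries. Pairs of these had a chi-square over its degrees of freedom of 74.6 to 259, against 7.12 to 27.7 in its other groups. IgA against BDNF, a secreted neurotrophin, gave 0 called members against untreated cells, while 7.67% of the 18732 genes tested were called, 4.49% higher and 3.18% lower. At an unadjusted p under 0.05 there were 2 members, CD81 and TSPAN6, beside 4131 of all genes (22.1%), and DESeq2 called 0 members. CD81 had 4805, 4629 and 5009 normalised read counts with BDNF IgA against 4208, 4279 and 4587. The groups did not overlap, and the CD81 difference was small (log2 fold change 0.14, standard error 0.05, edgeR adjusted p = 0.075). It was called without untreated replicate 3, and CD81 and CD9 were called without BDNF IgA replicate 2. CD63, CD82 and CD151 differed by -0.06, 0.04 and 0.01 on the log2 scale, with 95% intervals from -0.17 to 0.06, -0.12 to 0.21 and -0.12 to 0.13.

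TSPAN7 IgA was followed by lower CD82. This was the 1 member of 10 called against untreated cells, lower, where 8.54% of all genes were called, 4.46% higher and 4.08% lower. A count of 1 of 10 was near the background. The median of the members was -0.07 on the log2 scale and that of all genes 0.00. CD82 is on chromosome 11 (44585977 to 44641908) and shares 280 exonic bases with CD82-AS1 on the opposite strand. It had 2099, 1735 and 1748.5 normalised read counts with TSPAN7 IgA and 2144.5, 2457 and 2333 in untreated cells. The groups did not overlap, though TSPAN7 IgA replicate 1 and untreated replicate 1 were close. CD82 was 0.81 times its untreated level (log2 fold change -0.31, standard error 0.08, edgeR adjusted p = 0.015). The call was lost without TSPAN7 IgA replicate 2 or 3 or untreated replicate 2 or 3, with edgeR adjusted p-values of 0.115, 0.093, 0.092 and 0.057, and log2 fold changes stayed between -0.41 and -0.26.

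CD9 pointed the same way and did not pass. Its normalised read counts were 11787, 11300.0 and 11767 with TSPAN7 IgA, below 12826, 13409 and 14178 in untreated cells, a difference of -0.21 on the log2 scale (standard error 0.07, edgeR adjusted p = 0.084). CD9 was called, and the members called became 2, with a fit of the 6 compared libraries alone, with no filter on low counts, or without BDNF IgA replicate 2 or 3. The spread of CD9 is shared by the 3 groups of the fit, and BDNF IgA replicate 2 had 12015 CD9 counts, well under the 16136 and 16096 of the other BDNF IgA libraries.

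TSPAN7 RNA, the target of this antibody, was not called either. Its log2 fold change against untreated cells was -0.25 with a 95% interval from -0.91 to 0.42 (edgeR adjusted p = 0.72), and the groups overlapped. CD63, CD81 and CD151 differed by -0.10, 0.04 and 0.01 on the log2 scale, with 95% intervals from -0.21 to 0.01, -0.06 to 0.15 and -0.12 to 0.13. TSPAN1 was lower in every TSPAN7 IgA library (2017, 1828 and 1904 normalised read counts against 2072, 2054 and 2152), with a log2 fold change of -0.13 (standard error 0.05, edgeR adjusted p = 0.15). TSPAN3, TSPAN6 and TSPAN15 differed by -0.04, 0.07 and 0.06 and were not called.

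Set directly against each other, the antibodies differed in CD9 and CD82. These 2 of the 10 members were called, both lower in the cells given TSPAN7 IgA, where 7.92% of all genes were called, 3.42% higher and 4.50% lower. Among genes with at least 1 CPM in 3 libraries the share was 10.5%. CD9 had 11787, 11300.0 and 11767 normalised read counts with TSPAN7 IgA and 16136, 12015 and 16096 with BDNF IgA, a ratio of 0.79 (log2 fold change -0.34, standard error 0.07, edgeR adjusted p = 0.0068). All TSPAN7 IgA libraries were below all BDNF IgA ones, and replicate 2 of the latter was close to them.

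CD82 had 2099, 1735 and 1748.5 counts against 2537, 2061 and 2555, a ratio of 0.78 (log2 fold change -0.36, standard error 0.08, edgeR adjusted p = 0.0078). Here 1 TSPAN7 IgA library overlapped 1 BDNF IgA library. Both calls, that of CD9 and that of CD82, were lost without BDNF IgA replicate 1 (edgeR adjusted p = 0.061 and 0.058) and without TSPAN7 IgA replicate 2 (0.054 and 0.073), and that of CD82 also without TSPAN7 IgA replicate 3 (0.051). The log2 fold changes stayed between -0.47 and -0.28 for CD9 and between -0.45 and -0.30 for CD82.

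TSPAN7 itself had fewer reads in every library with the antibody against TSPAN7 than in any with that against BDNF, 25, 20 and 15 reads against 31, 28 and 38, with no overlap. The log2 fold change was -0.61 with a 95% interval from -1.25 to 0.04 (edgeR adjusted p = 0.25), and it was called in 0 of 16 alternatives that gave a value. TSPAN1 had a log2 fold change of -0.15 (standard error 0.05, edgeR adjusted p = 0.088), also without overlap. The comparisons of TSPAN7 IgA with BDNF IgA and with untreated cells share the TSPAN7 IgA libraries.

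**Figure D3:**
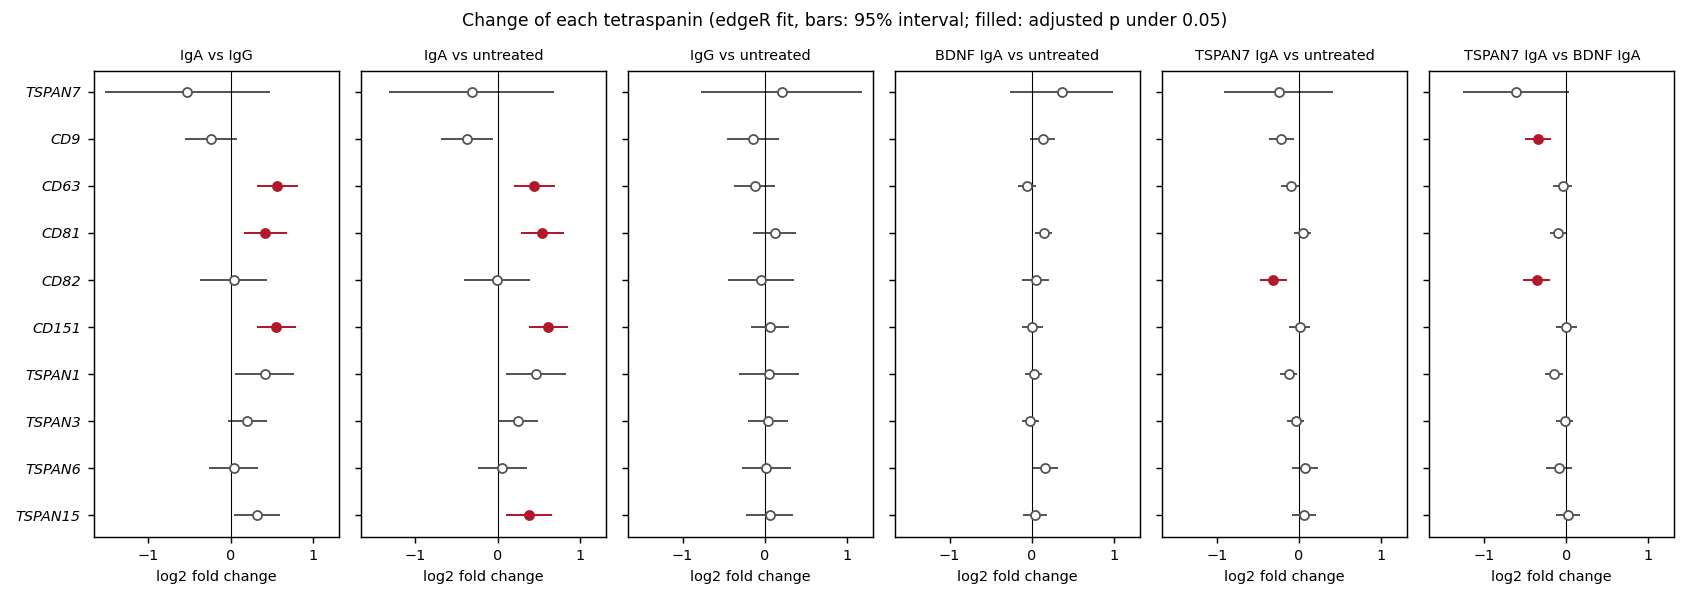
Log2 fold change (x axis) of the 10 tetraspanins in the 6 comparisons, with 95% intervals from the edgeR fit; filled points had an adjusted p under 0.05. CD63, CD81 and CD151 are filled on the right in the comparisons of IgA, CD82 on the left with TSPAN7 IgA, and the intervals of TSPAN7 are the widest in every panel.

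The other tetraspanins held the family's largest fold changes with IgA. Of the 23 genes, 16 had enough reads to be tested in the first series, and 15 had in the second. CD37, CD53 and TSPAN32, which belong to blood cells, had at most 5 reads in any library, and TSPAN16 had 0 in all. Against IgG and against untreated cells, 3 of the 16 (18.8%) were called with IgA, beside 24.2% and 25.0% of all genes, all higher: TSPAN5, TSPAN2 and UPK1B. TSPAN5, another escort of ADAM10, had 415, 361 and 570.3 normalised read counts with IgA, 188, 180.3 and 166 with IgG, and 182, 154 and 163 in untreated cells. That is 2.51-fold over IgG (log2 fold change 1.33, standard error 0.19, edgeR adjusted p = 0.00046), a larger change than that of any of the 10 members. TSPAN2 was higher than with IgG by 0.69 (standard error 0.15, edgeR adjusted p = 0.0064) and UPK1B, a tetraspanin of the uroplakin plaques of the bladder surface, by 0.58 (standard error 0.16, edgeR adjusted p = 0.018). Without IgA replicate 3 these increases over IgG were 1.12, 0.72 and 0.67 for TSPAN5, TSPAN2 and UPK1B, and all 3 were called. The UPK1B call was lost without IgA replicate 1 or IgG replicate 3, and 5 genes were called against IgG without IgA replicate 2. Under scaling by library size alone UPK1B (0.35, edgeR adjusted p = 0.18) and TSPAN2 (0.46, 0.076) lost their calls against IgG, and UPK1B also against untreated cells.

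In the second series 2 of the 15 were called with BDNF IgA (TSPAN31 and TSPAN2) and 3 with TSPAN7 IgA (UPK1B, TSPAN2 and TSPAN4), all higher, beside 7.67% and 8.54% of all genes. TSPAN2 had 308, 313 and 357 normalised read counts with TSPAN7 IgA and 297, 289.7 and 320.3 with BDNF IgA, against 233, 222.5 and 236 in untreated cells. It was higher with both antibodies, by 0.50 and 0.39 on the log2 scale (standard error 0.10 each, edgeR adjusted p = 0.0032 and 0.0196), and the call with BDNF IgA was lost without BDNF IgA replicate 1 or 3 or untreated replicate 1 or 2. UPK1B was higher with TSPAN7 IgA than with BDNF IgA by 0.35 (standard error 0.06, edgeR adjusted p = 0.0012), and TSPAN31 was lower by 0.39 (standard error 0.09, edgeR adjusted p = 0.0076, lost without BDNF IgA replicate 3). The TSPAN31 call with BDNF IgA was lost without BDNF IgA replicate 1 or 3 or untreated replicate 2, so that 0 to 3 of the 15 were called there as libraries were left out.

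Genes of proteins that tetraspanins bind or escort were also listed. Like the members and the other lists, they were chosen with earlier results of these data known. Their shares and medians are therefore a description and not an independent test. Of 14 listed partners, integrins, proteases and adhesion proteins, 6 (42.9%) were called with IgA against IgG and 7 (50%) against untreated cells, beside 24.2% and 25.0% of all genes. All were higher, with medians of 0.58 and 0.67 on the log2 scale against -0.01 over all genes for either. Among genes with at least 1 CPM in 3 libraries 30.5% and 31.1% were called. CLDN1, a tight junction claudin that associates with CD81 and CD9, had 46351, 40899 and 38286 normalised read counts with IgA and 10046, 8801 and 11037 with IgG. The ranges were far apart, and CLDN1 was 4.20-fold higher (log2 fold change 2.07, standard error 0.12, edgeR adjusted p = 3.8e-07), and by 2.13 on the log2 scale without IgA replicate 3.

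CD44, the hyaluronan receptor, was higher with IgA than with IgG by 1.42 on the log2 scale (standard error 0.18, edgeR adjusted p = 0.00017), from 3386, 3184 and 2436 to 7232, 6457.5 and 10404 counts. ITGA3, the laminin receptor subunit that CD151 holds in its web, was higher by 0.87 (standard error 0.12, edgeR adjusted p = 0.00033). Without IgA replicate 3 CD44 was higher by 1.19 and ITGA3 by 0.73, and both were called. ITGA6, ITGB1 and HBEGF were also called, and MMP14 was added against untreated cells. EPCAM, IGSF8, PTGFRN, ADAM10 and ADAM17 were not called with IgA.

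In the second series 4 of the 14 partners were called with BDNF IgA, all higher, and 5 with TSPAN7 IgA, 4 higher and 1 lower, where the background was 7.67% and 8.54% of genes. Among genes with at least 1 CPM in 3 libraries it was 10.3% and 11.5%. CLDN1 was again among the partners called, with 8455, 8779.9 and 7824 normalised read counts with TSPAN7 IgA, 6925, 6305 and 5861 with BDNF IgA, and 5220.0, 5677.5 and 5191 in untreated cells. The 3 groups did not overlap, and CLDN1 was higher with TSPAN7 IgA than with BDNF IgA by 0.39 (standard error 0.06, edgeR adjusted p = 0.00023). Its call with BDNF IgA against untreated cells was lost without BDNF IgA replicate 1 or untreated replicate 1 or 3 (edgeR adjusted p = 0.086, 0.059 and 0.054). ITGB4, the integrin subunit of hemidesmosomes, was lower with TSPAN7 IgA, at 16985, 15006 and 15750.1 against 20078, 20160.1 and 19647 in untreated cells (log2 fold change -0.33, standard error 0.05, edgeR adjusted p = 0.00047). ADAM10 rose by 0.21 with TSPAN7 IgA and by 0.22 with BDNF IgA (standard error 0.04 each, edgeR adjusted p = 0.0034 and 0.0026). Between the antibodies 2 partners were called, CLDN1 and, lower with TSPAN7 IgA by 0.21 (standard error 0.05, edgeR adjusted p = 0.022), ITGB4, whose call was lost without BDNF IgA replicate 1 or 3 or TSPAN7 IgA replicate 2 or 3, so that 1 to 5 were called. With BDNF IgA the partners called ranged from 2 to 6 as libraries were left out, the lowest without BDNF IgA replicate 1 or untreated replicate 1.

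Genes of the endosome and of vesicle release were listed because CD63, CD9 and CD81 travel through that route. Of 16, 5 (31.3%) were called with IgA against IgG and 6 (37.5%) against untreated cells, all higher, beside 24.2% and 25.0% of all genes. Among genes with at least 1 CPM in 3 libraries the shares were 30.5% and 31.1%, near those of the list. SDCBP, which encodes the adaptor syntenin that links CD63 to the budding machinery, had 2653, 2113.5 and 3519.5 normalised read counts with IgA and 1533.5, 1448 and 1376 with IgG. It was 1.90-fold higher (log2 fold change 0.93, standard error 0.16, edgeR adjusted p = 0.0015). TIMP1, a protease inhibitor that binds CD63 at the surface, was 2.04-fold higher (log2 fold change 1.03, standard error 0.21, edgeR adjusted p = 0.0041), at 3531, 3801 and 7181 counts against 2438, 2547.5 and 2126, with the highest value in IgA replicate 3. Without that library TIMP1 was higher by 0.63 and SDCBP by 0.71, and both were called (edgeR adjusted p = 0.00063 and 0.0011). SCARB2, a lysosomal membrane protein, was higher by 0.39 (standard error 0.10, edgeR adjusted p = 0.011), and by 0.37 without IgA replicate 3. Its call was lost without IgG replicate 2 and, at 0.16 (edgeR adjusted p = 0.383), under scaling by library size alone. Of this list 2 or 3 genes were called when any one IgG library was left out, and 3 against untreated cells without untreated replicate 2 or 3.

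In the second series BDNF IgA and TSPAN7 IgA each gave 1 called gene of 16 (6.25%, beside 7.67% and 8.54% of all genes), SCARB2, higher by 0.31 and 0.20 (standard error 0.06 each, edgeR adjusted p = 0.0014 and 0.037). The SCARB2 call with TSPAN7 IgA was lost without any one TSPAN7 IgA library, untreated replicate 1 or 2, or BDNF IgA replicate 1. Between the antibodies RAB27B was higher by 0.19 and TIMP1 lower by 0.19 with TSPAN7 IgA (standard error 0.05 and 0.06, edgeR adjusted p = 0.032 and 0.043), and both calls were lost without BDNF IgA replicate 1 or 3 or any one TSPAN7 IgA library. That of TIMP1 was also lost without any one untreated library and that of RAB27B under scaling by library size alone. Of this list 0 to 4 genes were called there, the most without BDNF IgA replicate 2, and 3 were called for BDNF IgA against untreated cells without that library.

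**Figure D4:**
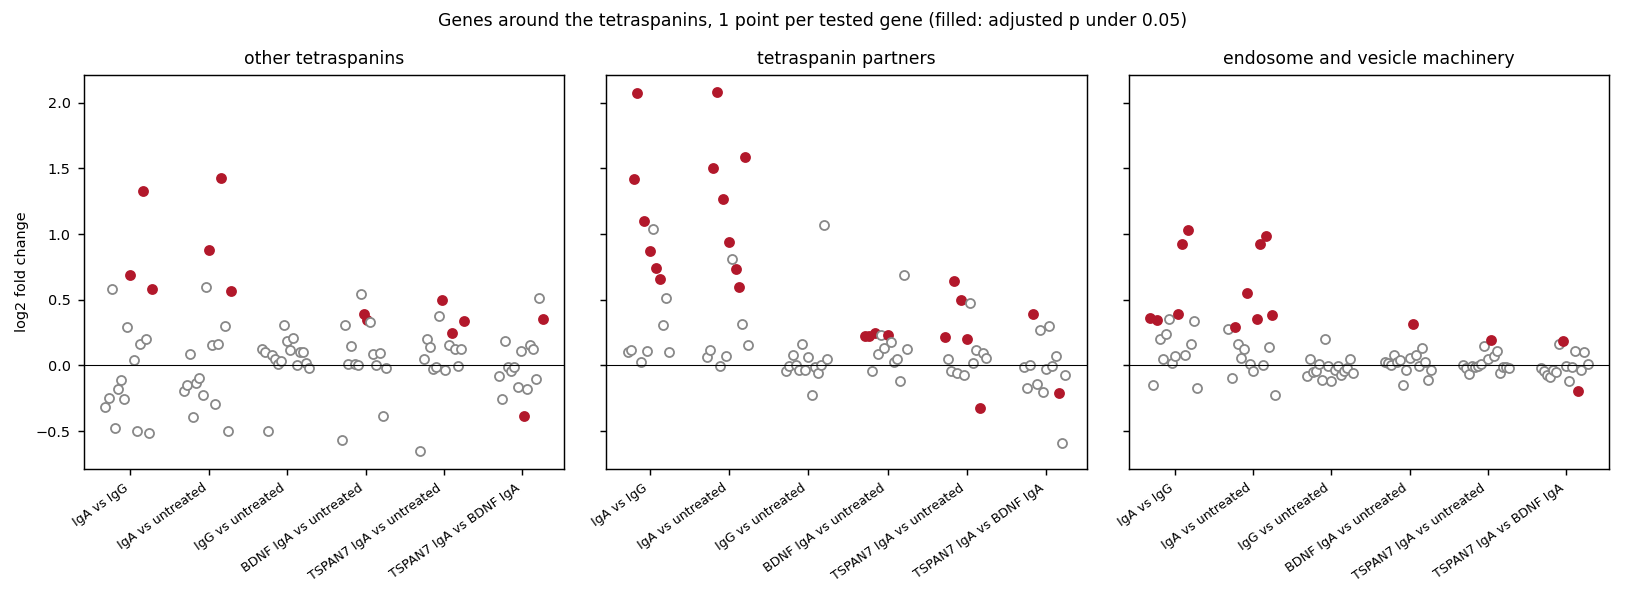
Log2 fold change (y axis) of every tested gene of 3 lists in the 6 comparisons (x axis), 1 point per gene; filled points had an edgeR adjusted p under 0.05. The partners reach 2.08 with IgA (CLDN1) and 0.64 with TSPAN7 IgA, while the vesicle genes reach 0.31 (SCARB2) in the second series.

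Markers of the cells themselves moved with some of these groups, and their part in the results was not tested. With TSPAN7 IgA the summed epithelial markers were at 4261 to 4420 CPM against 4734 to 5118 in untreated cells and 4885 to 5856 with BDNF IgA, in the same libraries in which CD9 and CD82 were lower. KRT7 was higher by 0.54 and MUC16 and WT1 were lower by 0.47 and 0.30 on the log2 scale. MUC16 was the largest part of the sum, so the sum mostly follows that gene. Its means were 1516 normalised CPM with TSPAN7 IgA, 2096 in untreated cells and 2402 with BDNF IgA. Of the 8 markers, 1 was called higher and 2 lower with TSPAN7 IgA than in untreated cells, beside 4.46% and 4.08% of all genes. With IgA, 4 of the 8 epithelial markers were called against IgG, beside 24.2% of all genes, 2 in each direction (KRT7 and PAX8 higher, WT1 and KRT8 lower). COL1A1 and COL1A2 were higher by 0.64 and 0.66. IgA replicate 3 was the highest IgA library for both collagen genes, at 1316 and 3534 normalised read counts. Of the leukocyte markers MS4A1 and CD3E had at most 2 reads in any library, while PTPRC was called higher with TSPAN7 IgA than in untreated cells (log2 fold change 1.39, standard error 0.43, edgeR adjusted p = 0.0487) at means of 19.7 and 7.4 normalised read counts. With BDNF IgA the PTPRC mean was similar, at 17.8, though it was not called there.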

How the data were processed

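The 18 libraries hold RNA of OVCAR3 cells. The values are raw read counts per gene as deposited by the authors, with no normalization. According to the study's methods, reads were trimmed with cutadapt 1.8.1, aligned to GRCh37 with STAR, counted with featureCounts and tested with DESeq2, whereas the submitters' processing notes name HTSeq 0.6.1 as the counter. Library preparation used a kit made for degraded RNA. Whether counting used strand is not given in the sources used here, and overlapping genes may share or lose reads. Exact duplicate rows of the second table (2055 of 57820, between 1.99% and 2.46% of a library's counts) were removed.

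Each series was fitted with all 9 libraries in edgeR 4.0.16 (R 4.3.3; TMM scaling, filterByExpr, quasi-likelihood test, two-sided), with Benjamini-Hochberg adjustment over all genes. A standard error is the size of a log2 fold change over the root of its F statistic. To normalise, each library was scaled to its series' mean effective size. Precision came from replicate spread, and no molecular identifiers were stated. Positions, lengths and sequences are from GENCODE on GRCh37. All 10 members were named. Of each list, at most the 3 called genes with the smallest adjusted p were to be named in a comparison. Others named among the partners (ITGA6, ITGB1, HBEGF, MMP14 and the uncalled ones), the uncalled tetraspanins and the markers were chosen after their values were seen. Genes of like profile were to be sought for members called with a log2 fold change of at least 1 in size, and there were none. The members and lists were chosen with earlier results of these data known. The fit was tested on simulated counts. Replicates differed by more than sampling noise (chi-square over its degrees of freedom, 4.16 to 259). Alternatives were DESeq2 1.42.0, other scalings and filters, a replicate block, a fit of the 6 compared libraries alone, dropping mitochondrial and ribosomal RNA, another length and leaving out each library.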

Additional observations from a re-analysis of the deposited data

How the results depend on the processing

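Counts of called genes in 4 lists and 6 comparisons were recomputed under every alternative. Scaling by library size alone left 0 members called for IgA vs IgG, 2 for IgA vs untreated cells (1 higher, 1 lower) and 1 for BDNF IgA, and 1 vesicle gene for TSPAN7 IgA vs BDNF IgA. DESeq2 called 8 vesicle genes for IgA vs IgG. For TSPAN7 IgA vs untreated cells, no filter on low counts, the replicate block and the fit of only the 6 libraries compared gave 2 members each. For TSPAN7 IgA vs BDNF IgA, no filter gave 5 partners and the 6 libraries alone 1 vesicle gene. With the longest transcript, 43 of 60 ranks by level per length were the same. All other results of the scalings, filters and tools kept their counts within 1.5 times.

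Leaving out 1 library at a time, members called ranged from 2 to 6 for IgA vs IgG and IgA vs untreated cells, and from 0 to 2 for BDNF IgA, TSPAN7 IgA and TSPAN7 IgA vs BDNF IgA. Other tetraspanins ranged from 2 to 5 for IgA vs IgG and IgA vs untreated cells, 0 to 3 for BDNF IgA and 1 to 3 for TSPAN7 IgA vs BDNF IgA. Partners ranged from 2 to 6 for BDNF IgA and 1 to 5 for TSPAN7 IgA vs BDNF IgA. Vesicle genes ranged from 2 to 6 for IgA vs IgG, 3 to 7 for IgA vs untreated cells, 1 to 3 for BDNF IgA, 0 to 1 for TSPAN7 IgA and 0 to 4 for TSPAN7 IgA vs BDNF IgA. Over all genes, the number called ranged from 2566 to 5286 for IgA vs IgG (4360 with all libraries), 2601 to 5229 for IgA vs untreated cells (4503 with all libraries), 734 to 2798 for BDNF IgA vs untreated cells (1437 with all libraries), 757 to 2304 for TSPAN7 IgA vs untreated cells (1600 with all libraries) and 482 to 3276 for TSPAN7 IgA vs BDNF IgA (1484 with all libraries). The cause of these shifts was not tested.

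No called member changed sign. Uncalled ones did. Under library size alone the log2 fold changes for IgA vs IgG became -0.21 for CD82, -0.037 for TSPAN3 and -0.19 for TSPAN6, that of TSPAN6 for IgA vs untreated cells -0.14, and that of CD151 for TSPAN7 IgA vs BDNF IgA -0.011. With libraries left out, CD82 ranged from -0.14 to 0.26 (IgA vs IgG), -0.13 to 0.13 (IgA vs untreated), -0.27 to 0.13 (IgG) and -0.010 to 0.14 (BDNF IgA). TSPAN6 ranged from -0.063 to 0.14, -0.044 to 0.16 and -0.072 to 0.11 in the first 3 of these and from -0.0086 to 0.15 for TSPAN7 IgA. TSPAN1 ranged from -0.011 to 0.12 (IgG) and -0.0074 to 0.041 (BDNF IgA). CD151 ranged from -0.053 to 0.039 (BDNF IgA), -0.050 to 0.063 (TSPAN7 IgA) and -0.048 to 0.056 (TSPAN7 IgA vs BDNF IgA). TSPAN3 ranged from -0.071 to 0.020 (BDNF IgA) and -0.065 to 0.029 (TSPAN7 IgA vs BDNF IgA), and TSPAN15 from -0.033 to 0.075 and -0.016 to 0.093 in the same order.

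Replicate numbers did not pair the libraries: deviations of same-numbered libraries correlated by -0.07 to 0.25 in the first series (1 of 9 over 0.1) and -0.02 to 0.09 in the second (0 of 9). The replicate block called 2 members rather than 1 for TSPAN7 IgA vs untreated cells, adding CD9 (-0.21, edgeR adjusted p = 0.036), and 5 rather than 4 for IgA vs untreated cells, adding TSPAN1 (0.44, edgeR adjusted p = 0.037). TSPAN7 had 12 to 38 reads a library, and the part of counting error in its wide intervals was not tested.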
